A study of Mus musculus with 12 samples.

Results

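The 34 genes described here are 19 genes of glycolysis and its control, 4 genes of the pentose phosphate pathway and 11 genes of the tricarboxylic acid (TCA) cycle with its cytosolic partners, taken by symbol from the 38215 genes counted in a polyA RNA-seq study of RAW264.7 cells. RAW264.7 is a mouse macrophage line labelled as BALB/c, so every group shares 1 cell line and 1 genotype. The cells received a non-targeting control siRNA pool or a pool of siRNAs against SF3a1, a subunit of the SF3a complex of the spliceosome, for 24 hours, and were then left without LPS or exposed to 20 ng/ml LPS for 4 hours. Crossing the siRNA pools with the LPS states gives 4 groups of 3 libraries each, called control cells or knockdown cells after their siRNA, without LPS or with it. Lipopolysaccharide (LPS) is a component of the outer membrane of Gram negative bacteria that activates macrophages through the receptor TLR4. The comparisons below ask how LPS and the knockdown, alone and together, moved the transcripts of central carbon metabolism, and comparisons that use the same group share its libraries.

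Between 12746019 and 41091887 counts fell on genes in a library, which left all 34 genes above the filter on low counts. Levels are given as CPM, counts scaled to one common library total after TMM scaling, which sets the effective total from the bulk of genes. Replicate 1 of each group was the sum of 2 sequencing runs. Over 8893 genes with at least 100 counts in every library, it differed from replicates 2 and 3 by a median of 0.233 to 0.375 on the log2 scale, and these differed from each other by 0.121, 0.176 and 0.114 in 3 groups and by 0.257 in the knockdown cells with LPS. It thus stood apart in 3 groups, and results that rested on a replicate 1 are named below. The siRNA treatments and LPS exposures were each repeated for the replicates in the 1 cell line, so p-values measure the spread between these repeats. A gene was called when its p in the edgeR quasi-likelihood test, adjusted by Benjamini and Hochberg's method over all 14983 genes tested, was at most 0.1. In RNA from a whole culture, fewer cells that use a gene and less of its RNA per cell cannot be told apart.

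Glycolysis splits glucose to pyruvate in the cytosol and yields ATP and, through lactate dehydrogenase, lactate that leaves the cell. The pentose phosphate pathway branches from glucose 6-phosphate and supplies NADPH and ribose, and the TCA cycle oxidises acetyl groups in the mitochondrion and provides citrate, succinate and itaconate precursors. Macrophages activated by LPS are known for raised glucose uptake and lactate release and for a TCA cycle interrupted at isocitrate and at succinate dehydrogenase, with hypoxia-inducible factor 1 alpha (HIF-1α, encoded by Hif1a) as one regulator.

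The targeted gene followed the labels. Sf3a1 stood at 173, 216 and 185 CPM with control siRNA and at 27.1, 27.5 and 32.1 CPM with SF3a1 siRNA, both without LPS. With LPS it stood at 150, 194 and 157 CPM with control siRNA and at 30.3, 26.7 and 45 CPM with SF3a1 siRNA. Every knockdown library lay below every control library, and the fitted log2 changes were −2.73 ± 0.204 (SE, n = 3) without LPS and −2.30 ± 0.2 with LPS, with edgeR adjusted p of 1.14e-05 and 1.47e-05. The 8 macrophage markers, led by the lysozyme gene Lyz2, summed to between 9480 and 14500 CPM in every library, whereas the markers of fibroblasts, epithelial cells, T cells, B cells and neutrophils summed to at most 1.39 CPM per list. Of 6 genes known to be induced by LPS, all 6 rose with LPS under either siRNA. Under LPS all 6 had a lower mean with SF3a1 siRNA than with control siRNA. For 5 of them every knockdown library lay below every control library, and 5 were called lower, against 20.4% of all genes tested. The groups overlapped for the cytokine gene Tnf, with means of 904 CPM with SF3a1 siRNA and 1450 CPM with control siRNA.

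In control cells without LPS the members differed widely in level per kilobase of exon. Pyruvate kinase (Pkm, 921 CPM per kb), aldolase A (Aldoa, 788 CPM per kb) and lactate dehydrogenase A (Ldha, 596 CPM per kb) stood highest. The triosephosphate isomerase gene Tpi1 (284 CPM per kb) and the transaldolase gene Taldo1 (269 CPM per kb) followed. The genes that admit and commit glucose were lower, with the glucose transporter Slc2a1 at 43.3, the phosphofructokinase Pfkl at 38.9, and the hexokinases Hk1, Hk2 and Hk3 at 23.2, 16.6 and 12.8 CPM per kb. The glyceraldehyde 3-phosphate dehydrogenase gene Gapdh was counted at only 17.4 CPM per kb. Its count is uncertain, because 81.6% of the 60-base windows of its exons recur in 167 other genes, 160 of them pseudogenes, and only uniquely placed reads were kept. The same windows were shared for 69.5% of enolase 1 (Eno1), 67.8% of phosphoglycerate kinase (Pgk1), 41.1% of phosphoglycerate mutase (Pgam1), 23.9% of Pkm, 14.4% of glucose phosphate isomerase (Gpi1) and 10.4% of Ldha, so reads of these genes could also have been lost.

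**Figure D1:**
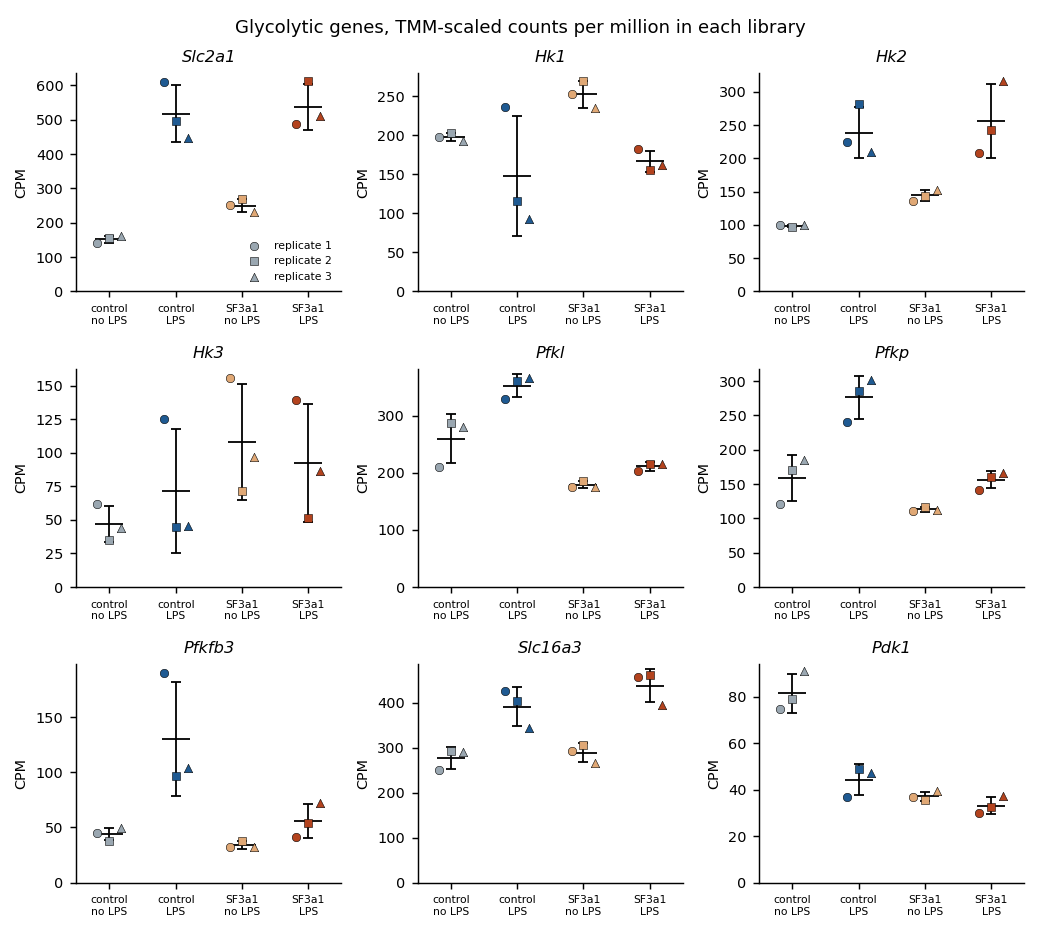
TMM-scaled CPM of 9 glycolysis genes (Slc2a1, Hk1, Hk2, Hk3, Pfkl, Pfkp, Pfkfb3, Slc16a3 and Pdk1) in each of the 12 libraries, on axes from 0, with 1 symbol per replicate and bars at the mean ± SD of each group of 3. Slc2a1 is at 448 to 609 CPM in control cells with LPS against 140 to 161 CPM without it, and Pfkl and Pfkp are lower in both knockdown groups than in control cells with LPS.

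LPS with control siRNA raised Slc2a1, Hk2, Pfkfb3, Pfkp, Pfkl and Slc16a3 of the glycolysis genes, and lowered Pdk1 and 5 genes of the TCA cycle. Of 19 glycolysis genes 6 rose and 1 fell, of 4 pentose phosphate genes 0 were called, and of 11 TCA genes 5 fell and 0 rose. Over all genes tested 32.1% were called, 13.8% higher and 18.3% lower, so the total of calls among the glycolysis genes lay near the background. Scaling by library totals moved the share of all calls that were higher from 42.9% to 27.6%. The median log2 change was 0.32 for glycolysis, −0.07 for the pentose phosphate pathway and −0.29 for the TCA cycle, against −0.02 for all genes tested.

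Slc2a1 (ENSMUSG00000028645, chromosome 4, 119108711 to 119137983, mm10), which encodes the facilitative glucose transporter GLUT1, moved most. It was counted at 140, 155 and 161 CPM without LPS and at 609, 497 and 448 CPM with LPS. The groups lay far apart, with a log2 change of 1.77 ± 0.152 (SE, n = 3, edgeR adjusted p = 2.88e-06). Hk2 (ENSMUSG00000000628, chromosome 6, 82725025 to 82774454), the inducible hexokinase that phosphorylates glucose, went from 100, 97.4 and 100 CPM to 224, 282 and 210 CPM. All 3 libraries with LPS were above those without it, with a log2 change of 1.26 ± 0.167 (edgeR adjusted p = 1.11e-04). The other hexokinases were not called. Hk1, the widely expressed form, was at 198, 203 and 193 CPM and then at 236, 116 and 92.4 CPM, with a log2 change of −0.42 ± 0.263 (edgeR adjusted p = 0.297). Hk3 was at 61.9, 35.2 and 43.8 CPM and then at 125, 44.7 and 45.6 CPM, with a log2 change of 0.62 ± 0.449 (edgeR adjusted p = 0.374). Both were uneven within the LPS group, where replicate 1 was the highest for each, and without that library the estimate for Hk3 turned to −0.06, while Hk1 was called lower (−0.93, adjusted p = 6.12e-04). With the replicate number as a block Hk1 was called lower (−0.49, adjusted p = 0.0951) and Hk3 higher (0.49, adjusted p = 0.0364), and Hk3 was above 0 in each of the 3 same-numbered pairs. Scaling by library totals also gave a call for Hk1 (adjusted p = 0.0794), as did replicates 2 and 3 alone (adjusted p = 6.44e-04), and the fit with no filter on low counts one for Hk3 (0.60, adjusted p = 0.0524).

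At the phosphofructokinase step, which commits hexose to glycolysis, 3 genes rose and the scarcer muscle form Pfkm, outside the 34 genes, fell (−0.99, edgeR adjusted p = 7.96e-04). Pfkfb3, which makes fructose 2,6-bisphosphate, the allosteric activator of phosphofructokinase, went from 44.6, 38.1 and 49.1 CPM to 190, 97 and 104 CPM. The lowest LPS library was above the highest library without LPS, and replicate 1 of the LPS group was the highest of all. Its log2 change was 1.57 ± 0.263 (edgeR adjusted p = 6.81e-04). Pfkp, the platelet-type subunit of phosphofructokinase, went from 121, 171 and 185 CPM to 241, 286 and 302 CPM, a log2 change of 0.80 ± 0.163 (edgeR adjusted p = 0.0027). Pfkl, the liver-type subunit, went from 211, 288 and 281 CPM to 330, 361 and 367 CPM, a log2 change of 0.44 ± 0.136 (edgeR adjusted p = 0.0283). The groups did not overlap for either subunit. The Pfkl call ended when libraries were scaled by their totals alone (0.26, adjusted p = 0.214) and when no filter on low counts was used (0.42, adjusted p = 0.156).

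At the other end of the pathway, Slc16a3, which encodes the lactate exporter MCT4, went from 250, 293 and 291 CPM to 427, 404 and 344 CPM, a log2 change of 0.50 ± 0.135 (edgeR adjusted p = 0.0155). Pdk1 (ENSMUSG00000006494, chromosome 2, 71873224 to 71903858), a kinase that inactivates pyruvate dehydrogenase, was the single glycolysis-list gene that fell. It went from 74.6, 79 and 90.8 CPM to 36.6, 48.9 and 47 CPM, with no overlap and a log2 change of −0.89 ± 0.151 (edgeR adjusted p = 7.86e-04). The middle of the pathway carried no call. Pkm was at 4660, 4740 and 4420 CPM without LPS and at 4870, 4730 and 4290 CPM with LPS, overlapping groups with a log2 change of 0.01 ± 0.126. Gapdh was at 73.5, 70.7 and 71.1 CPM and then at 118, 78.9 and 74.8 CPM, a log2 change of 0.34 ± 0.173 (edgeR adjusted p = 0.19) that was called without LPS replicate 3 (0.46, adjusted p = 0.0946). Hif1a itself was at 86.5, 130 and 117 CPM and then at 99.5, 156 and 140 CPM, overlapping groups with a log2 change of 0.25 ± 0.243 (edgeR adjusted p = 0.537). Gpi1, Aldoa, Tpi1, Pgk1, Pgam1, Eno1 and Ldha were also not called, although Eno1 was called higher with the replicate block (0.25, adjusted p = 0.0829).

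The promoters of the called glycolysis genes are shown because the pathway is a textbook target of HIF-1, whose core element is ACGTG or GCGTG. RefSeq promoter windows, 250 bases before to 50 after each annotated start on GRCm38.p6, were matched by symbol to 33 of the 34 members, with 49 promoters in all and none for Idh3a. The 100 bases before the start are printed 5′ to 3′ on the gene's strand, with each ACGTG or GCGTG, read on either strand (so also as CACGT or CACGC), in capitals.
Hk2 (chr6:82774455-82774554, minus strand): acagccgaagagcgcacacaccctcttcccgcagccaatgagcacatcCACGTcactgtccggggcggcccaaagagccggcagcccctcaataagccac
Pfkfb3, downstream start (chr2:11502091-11502190, minus strand): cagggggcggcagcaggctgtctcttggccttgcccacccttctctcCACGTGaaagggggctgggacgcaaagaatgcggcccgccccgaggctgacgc
Pfkp (chr13:6648772-6648871, minus strand): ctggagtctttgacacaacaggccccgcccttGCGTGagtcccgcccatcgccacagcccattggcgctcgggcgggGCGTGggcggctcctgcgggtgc
Pfkl (chr10:78009808-78009907, minus strand): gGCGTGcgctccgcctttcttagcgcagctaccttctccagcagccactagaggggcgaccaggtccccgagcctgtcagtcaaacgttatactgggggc
Slc16a3 (chr11:120948967-120949066, plus strand): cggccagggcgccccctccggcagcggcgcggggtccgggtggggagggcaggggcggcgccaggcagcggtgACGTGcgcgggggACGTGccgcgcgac
Pdk1, which fell, upstream start (chr2:71873124-71873223, plus strand): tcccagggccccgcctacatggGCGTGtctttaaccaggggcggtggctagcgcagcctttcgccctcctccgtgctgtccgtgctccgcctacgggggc

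Pdk1 has a downstream start as well, at chr2:71874804-71874903, with 0 matches, which lies in an annotated exon and is not printed. The upstream Pfkfb3 window, chr2:11553930-11554029, lies in one too and holds 1 match. The Slc2a1 window holds 2 such matches and is not printed because 34 of its bases lie in an annotated exon. The printed Pfkfb3, Pfkp and Slc16a3 windows also reach into annotated exons, with 11, 6 and 14 of their bases, and the others do not. In Pfkfb3 the match is the palindrome CACGTG, the E-box bound by factors such as Myc, which contains ACGTG on each strand. In Slc16a3 a pair of ACGTG matches stands close to the start, and in Pfkp a pair of GCGTG matches. Over the 300-base windows ACGTG was present in 25 of 49 member promoters (51%) and in 19.6% of all 32851 promoters, and GCGTG in 59.2% and 32.4%. Either motif was present in 83.7% of member promoters and 43.8% of all, and CACGTG in 12.2% and 7.15%. Among the 3 pathways, either motif was found in 22 of 28 glycolysis promoters, 4 of 5 pentose phosphate promoters and 15 of 16 TCA promoters. Genes with several starts count more than once here, and 9 of the 49 windows, 5 of them TCA windows of Ogdh, overlap another of the same gene. By gene, either motif was found for 17 of 19, 4 of 4 and 9 of 10. The member promoters held a mean of 20.1 CG dinucleotides against 12.4 over all promoters, and the part of base composition in these shares was not tested. A match describes the letters only, and no binding was measured.

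The 4 pentose phosphate genes moved little with LPS. Glucose 6-phosphate dehydrogenase (G6pdx), the rate-limiting enzyme of the pathway, was at 433, 398 and 389 CPM without LPS and at 499, 372 and 362 CPM with LPS. These groups overlapped. Mean levels of phosphogluconate dehydrogenase (Pgd) were 827 and 882 CPM, of transketolase (Tkt) 969 and 871 CPM, and Taldo1 was at 740, 498 and 513 CPM and then at 610, 437 and 451 CPM. None passed edgeR's quasi-likelihood test, 0 had an unadjusted p under 0.05, and DESeq2 also called 0.

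In the TCA cycle 3 isocitrate dehydrogenase genes fell, Idh1, Idh2 and Idh3a, while Idh3b (−0.03, edgeR adjusted p = 0.901) and Idh3g (−0.11, edgeR adjusted p = 0.72) were not called. Idh1 (ENSMUSG00000025950, chromosome 1, 65158616 to 65186500), the cytosolic NADP-dependent enzyme, went from 158, 115 and 136 CPM to 105, 61.4 and 81.7 CPM. The groups stood apart, with a log2 change of −0.72 ± 0.183 (edgeR adjusted p = 0.0104). Idh2 (ENSMUSG00000030541, chromosome 7, 80094846 to 80115392), its mitochondrial counterpart, went from 333, 292 and 309 CPM to 178, 222 and 230 CPM, a log2 change of −0.57 ± 0.18 (edgeR adjusted p = 0.0335). Idh3a, the catalytic subunit of the NAD-dependent enzyme, went from 183, 221 and 223 CPM to 119, 161 and 167 CPM, a log2 change of −0.49 ± 0.149 (edgeR adjusted p = 0.0282). Neither of these pairs of groups overlapped. Sdha, the flavoprotein of succinate dehydrogenase, went from 364, 431 and 441 CPM to 265, 352 and 347 CPM, a log2 change of −0.36 ± 0.143 (edgeR adjusted p = 0.0882). Mdh1, the cytosolic malate dehydrogenase, went from 361, 315 and 385 CPM to 202, 244 and 319 CPM, overlapping groups with a log2 change of −0.47 ± 0.168 (edgeR adjusted p = 0.0555).

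Among these 5 falls only that of Idh1 was kept under every alternative run. The Idh2 call was lost without replicate 1 of the control group (adjusted p = 0.119) or of the LPS group (adjusted p = 0.109), and the Idh3a call without control replicate 3 (adjusted p = 0.106). The Sdha call was lost without control replicate 2 or 3 or LPS replicate 1 (adjusted p of 0.225, 0.262 and 0.256), and the Mdh1 call without control replicate 1 or 3 or LPS replicate 1 or 2 (adjusted p of 0.145, 0.193, 0.173 and 0.146). In replicates 2 and 3 alone 3 of the 5 were called, without Idh2 (adjusted p = 0.167) and Mdh1 (0.225). A fit of only the groups compared lost Idh3a (0.118), Sdha (0.238) and Mdh1 (0.173), and the Sdha call was also lost with DESeq2's size factors in edgeR (0.114) and with no filter on low counts (0.228). Citrate synthase (Cs), oxoglutarate dehydrogenase (Ogdh), the succinate dehydrogenase subunit Sdhb, fumarate hydratase (Fh1), the mitochondrial malate dehydrogenase Mdh2 and ATP citrate lyase (Acly) were not called, with Fh1 called lower with the replicate block (−0.30, adjusted p = 0.0756) and with library totals (−0.47, adjusted p = 0.0706).

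**Figure D2:**
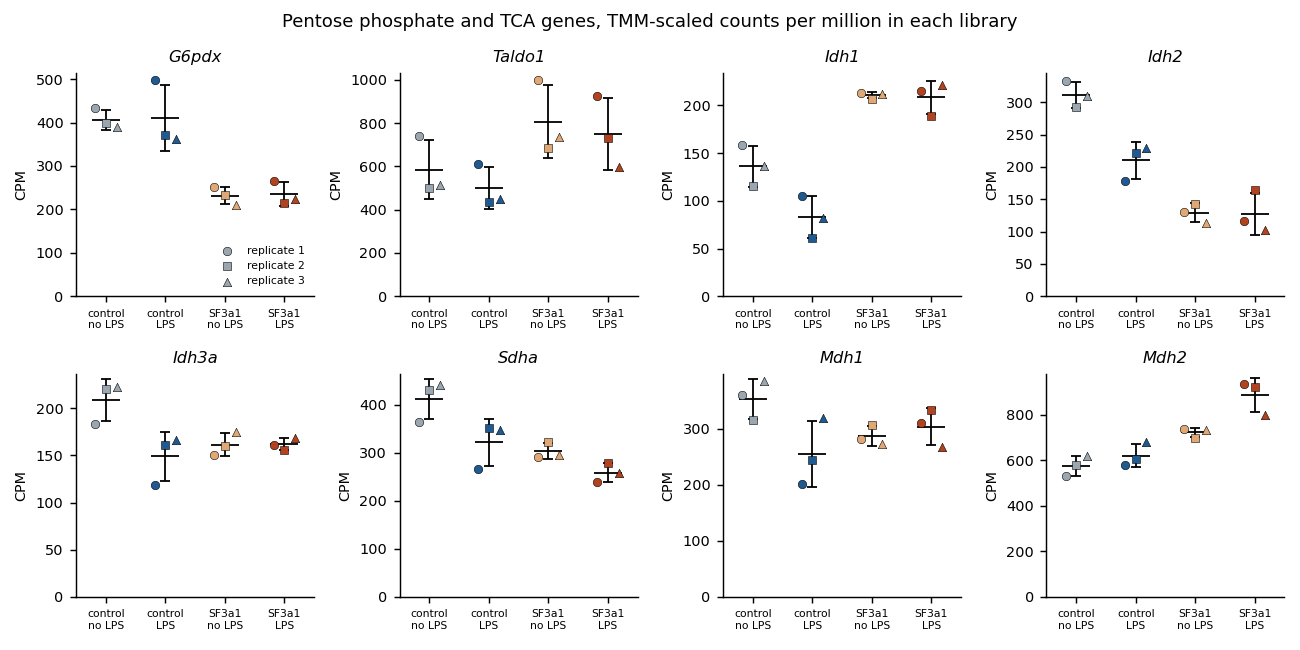
TMM-scaled CPM of G6pdx and Taldo1 of the pentose phosphate pathway and of 6 TCA genes (Idh1, Idh2, Idh3a, Sdha, Mdh1 and Mdh2) in each of the 12 libraries, on axes from 0, with 1 symbol per replicate and bars at the mean ± SD of each group of 3. Idh1 is lowest in control cells with LPS and highest in the knockdown groups, whereas Idh2 and G6pdx are lower in both knockdown groups than in control cells without LPS.

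SF3a1 siRNA without LPS raised Slc2a1, Hk2, Hk3, Gpi1, Idh1 and Mdh2 and lowered Pfkl, Pfkp, Pdk1, G6pdx, Idh2, Idh3a and Sdha. Of 19 glycolysis genes 4 rose and 3 fell, of 4 pentose phosphate genes 1 fell, and of 11 TCA genes 2 rose and 3 fell, against 33.8% of all genes tested (13.7% higher and 20.1% lower). The medians of the log2 changes were 0.13, −0.21 and −0.21 for the 3 pathways, against −0.02 over all genes. These shares of calls were near the background.

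Slc2a1 rose before any LPS, from 140, 155 and 161 CPM to 251, 268 and 231 CPM, so that every knockdown library was above every control library. Its log2 change was 0.72 ± 0.149 (edgeR adjusted p = 0.00345). Hk2 rose from 100, 97.4 and 100 CPM to 136, 144 and 153 CPM, a log2 change of 0.54 ± 0.165 (edgeR adjusted p = 0.0281). Hk3 rose from 61.9, 35.2 and 43.8 CPM to 156, 71.4 and 96.9 CPM, and its groups did not overlap although replicate 1 was the highest in each. Its log2 change was 1.20 ± 0.453 (edgeR adjusted p = 0.0684), and the call was lost without control replicate 2 or 3 or knockdown replicate 1 or 3 (adjusted p of 0.169, 0.138, 0.24 and 0.108). Hk1 was at 198, 203 and 193 CPM and at 253, 269 and 235 CPM, groups that stood apart with a log2 change of 0.35 ± 0.262 that was not called (edgeR adjusted p = 0.367), but was called when only the groups compared were fitted (0.37, adjusted p = 0.0279) and in replicates 2 and 3 alone (0.35, adjusted p = 0.0899). Gpi1, which interconverts glucose and fructose 6-phosphate, rose from 638, 571 and 632 CPM to 811, 756 and 729 CPM, a log2 change of 0.32 ± 0.126 (edgeR adjusted p = 0.0822). This call did not outlast the loss of control replicate 2 or of any knockdown library (adjusted p of 0.132, 0.209, 0.139 and 0.127), nor scaling by library totals (0.161) or the fit with no filter on low counts (0.424).

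Pfkl, Pfkp and Pdk1 fell, as did Pfkm (−0.62, edgeR adjusted p = 0.016, and 0.149 without control replicate 1). Pfkl went from 211, 288 and 281 CPM to 176, 186 and 176 CPM, a log2 change of −0.53 ± 0.136 (edgeR adjusted p = 0.0114). Pfkp went from 121, 171 and 185 CPM to 110, 117 and 112 CPM, a log2 change of −0.49 ± 0.162 (edgeR adjusted p = 0.0394). The groups stood apart for each, and in each the first control library was the closest to the knockdown. The Pfkl call was lost without control replicate 2 or 3 (adjusted p of 0.111 and 0.104), and the Pfkp call without control replicate 2 or 3 or knockdown replicate 1 or 3 (adjusted p of 0.211, 0.288, 0.102 and 0.111). Pdk1 went from 74.6, 79 and 90.8 CPM to 36.6, 35.4 and 39.2 CPM, with every knockdown library below every control library. Its log2 change of −1.14 ± 0.152 (edgeR adjusted p = 2.28e-04) was the largest fall among the glycolysis genes in this comparison. Pfkfb3 was at 32.4, 38 and 32.1 CPM and was not called (−0.36, edgeR adjusted p = 0.342). Gapdh, at 79, 77 and 68.1 CPM (0.06, edgeR adjusted p = 0.852), and Pkm, at 5110, 5710 and 4730 CPM (0.17, edgeR adjusted p = 0.364), overlapped their control levels. Hif1a, at 125, 175 and 162 CPM, had a log2 change of 0.47 that was not called (edgeR adjusted p = 0.181) but was called with the replicate block (0.48, adjusted p = 0.00618), as were Pgam1 (0.37, adjusted p = 0.0767) and Eno1 (0.28, adjusted p = 0.0482). Pgam1 and Eno1 were also called higher without control replicate 1 (0.70 and 0.42, adjusted p of 0.0887 and 0.0913). Hif1a was also called with only the groups compared (0.49, adjusted p = 0.0796), and both Hif1a (0.45, adjusted p = 0.0347) and Pgam1 (0.52, adjusted p = 0.0111) in replicates 2 and 3 alone.

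In the pentose phosphate pathway G6pdx (ENSMUSG00000031400, chromosome X, 74409483 to 74429194) fell from 433, 398 and 389 CPM to 251, 233 and 211 CPM. The groups were far apart, with a log2 change of −0.81 ± 0.153 (edgeR adjusted p = 0.002). Taldo1 was higher, at 1000, 684 and 734 CPM against 740, 498 and 513 CPM, in groups that overlapped. It was not called, but was called higher with the replicate block (0.47, adjusted p = 0.00342), without control replicate 1 (0.78, adjusted p = 0.0322) and in replicates 2 and 3 alone (0.49, adjusted p = 0.0208). Tkt was called lower with the block (−0.35, adjusted p = 0.0169) and when libraries were scaled by their totals (−0.42, adjusted p = 0.0534). The block took the pathway from 1 to 3 calls, and over all genes it called 47.1%.

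The NADP-dependent isocitrate dehydrogenases moved in opposite directions with the knockdown. Idh1 rose from 158, 115 and 136 CPM to 213, 207 and 212 CPM, a log2 change of 0.63 ± 0.182 (edgeR adjusted p = 0.0229). Idh2 fell from 333, 292 and 309 CPM to 131, 143 and 114 CPM, a log2 change of −1.27 ± 0.182 (edgeR adjusted p = 3.49e-04) and the largest of any member here. Neither pair of groups overlapped. Mdh2 rose from 530, 580 and 616 CPM to 736, 698 and 732 CPM, a log2 change of 0.33 ± 0.124 (edgeR adjusted p = 0.0703). Sdha fell from 364, 431 and 441 CPM to 291, 322 and 295 CPM (−0.45 ± 0.143, edgeR adjusted p = 0.0361) and Idh3a from 183, 221 and 223 CPM to 150, 160 and 175 CPM (−0.37 ± 0.149, edgeR adjusted p = 0.0879). The Mdh2 call was lost without any 1 knockdown library (adjusted p of 0.149, 0.107 and 0.166) and the Sdha call without control replicate 2 or 3 or knockdown replicate 1 or 3 (adjusted p of 0.199, 0.229, 0.102 and 0.115). The Idh3a call was lost without any 1 of the 6 libraries, with adjusted p of 0.133, 0.363 and 0.392 without control replicates 1 to 3 and of 0.23, 0.209 and 0.119 without knockdown replicates 1 to 3. The Mdh2 call was also lost with library totals (0.175), with no filter on low counts (0.401) and in replicates 2 and 3 alone (0.178). The Idh3a call was also lost with DESeq2's size factors in edgeR (0.146), with no filter (0.21) and in DESeq2's Wald test (0.149), and the Sdha call with no filter, at an adjusted p just over the threshold. Fh1 was called lower with the block (−0.38, adjusted p = 0.0242), with library totals (−0.47, adjusted p = 0.0776), with only the groups compared (−0.38, adjusted p = 0.0614) and in replicates 2 and 3 alone (−0.49, adjusted p = 0.0164).

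With LPS present, SF3a1 siRNA lowered Pfkl, Pfkp, Pfkfb3 and G6pdx, while Slc2a1 and Hk2 overlapped the levels of LPS-treated control cells. Of 19 glycolysis genes 2 rose and 4 fell, of 4 pentose phosphate genes 1 rose and 1 fell, and of 11 TCA genes 2 rose and 1 fell, against 38.8% of all genes (18.4% higher and 20.4% lower). The medians of the log2 changes were 0.16, −0.16 and 0.03, against −0.04 over all genes.

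Pfkfb3 was at 190, 97 and 104 CPM with control siRNA and at 40.9, 54.4 and 71.8 CPM with SF3a1 siRNA. All knockdown libraries were lower, with a log2 change of −1.23 ± 0.261 (edgeR adjusted p = 0.00348). Pfkp went from 241, 286 and 302 CPM to 142, 160 and 166 CPM, a log2 change of −0.82 ± 0.163 (edgeR adjusted p = 0.00225). Pfkl went from 330, 361 and 367 CPM to 203, 216 and 215 CPM, a log2 change of −0.74 ± 0.136 (edgeR adjusted p = 0.00144). The groups stood apart in all 3 genes and each call was kept under every alternative run, but replicate 1 carried much of the Pfkfb3 change, which was −0.67 in replicates 2 and 3 alone. Pfkm was not called (−0.05, edgeR adjusted p = 0.866). Slc2a1, at 609, 497 and 448 CPM and then at 488, 612 and 511 CPM, overlapped, with a log2 change of 0.05 (edgeR adjusted p = 0.836). Hk2 was at 224, 282 and 210 CPM and at 208, 242 and 317 CPM, and these groups overlapped as well (0.10, edgeR adjusted p = 0.7). Hk1 at 182, 155 and 162 CPM and Hk3 at 139, 51.4 and 86.1 CPM were not called (log2 changes 0.17 and 0.36, edgeR adjusted p of 0.689 and 0.603), and Hk3 was called with the replicate block (0.41, adjusted p = 0.067). Without replicate 1 of the LPS-treated control cells both were called higher, Hk1 at 0.68 (adjusted p = 0.00397) and Hk3 at 1.03 (adjusted p = 0.0736), and in replicates 2 and 3 alone both were called as well (0.61 and 0.61, adjusted p of 0.00759 and 0.0624), while Hk1 turned to −0.082 without control replicate 3 and Hk3 to −0.066 without knockdown replicate 1.

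Eno1, which makes phosphoenolpyruvate, rose from 1090, 926 and 895 CPM to 1480, 1280 and 1140 CPM (0.42 ± 0.145, edgeR adjusted p = 0.0417), and Gpi1 from 716, 589 and 572 CPM to 779, 797 and 750 CPM (0.31 ± 0.126, edgeR adjusted p = 0.0822). Pdk1 fell from 36.6, 48.9 and 47 CPM to 29.7, 32.5 and 37.2 CPM, with the lowest control library inside the knockdown range and a log2 change of −0.41 ± 0.151 (edgeR adjusted p = 0.0558). The Eno1 call was lost without control replicate 2 or 3 or knockdown replicate 1 (adjusted p of 0.12, 0.126 and 0.151). The Gpi1 call was lost without control replicate 2 or 3 or any knockdown library (adjusted p of 0.218, 0.23, 0.146, 0.146 and 0.114), and the Pdk1 call without control replicate 2 or 3 or knockdown replicate 1 or 2 (adjusted p of 0.184, 0.147, 0.172 and 0.109). With no filter on low counts the adjusted p of Eno1, Gpi1 and Pdk1 were 0.139, 0.362 and 0.199, and with only the groups compared those of Gpi1 and Pdk1 were 0.162 and 0.224. Pkm at 5440, 6100 and 5130 CPM against 4870, 4730 and 4290 CPM was higher in every knockdown library without passing the test (0.26, edgeR adjusted p = 0.134), and DESeq2's Wald test called it (0.28, adjusted p = 0.0849). Gapdh was at 118, 78.9 and 74.8 CPM and at 86.5, 102 and 80.6 CPM, overlapping groups (−0.015, edgeR adjusted p = 0.964). Hif1a was at 99.5, 156 and 140 CPM and at 122, 185 and 224 CPM, overlapping groups as well (0.42 ± 0.243, edgeR adjusted p = 0.214). With the replicate block 10 glycolysis genes were called in place of 6, against 50.9% of all genes under the same fit, with Pkm (0.26, adjusted p = 0.0403), Ldha (0.30, adjusted p = 0.0433) and Hif1a (0.41, adjusted p = 0.0126) added as higher. Ldha was also called without control replicate 1 (0.43, adjusted p = 0.0847) and Hif1a without knockdown replicate 1 (0.64, adjusted p = 0.0612) and in replicates 2 and 3 alone (0.47, adjusted p = 0.0264).

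G6pdx went from 499, 372 and 362 CPM to 266, 215 and 223 CPM, again with no overlap, a log2 change of −0.81 ± 0.153 (edgeR adjusted p = 0.00173). Taldo1, a sugar-shuffling enzyme of the non-oxidative branch, rose from 610, 437 and 451 CPM to 925, 732 and 595 CPM in overlapping groups (0.59 ± 0.224, edgeR adjusted p = 0.0647), a call lost without control replicate 2 or 3 or knockdown replicate 1 or 2 (adjusted p of 0.189, 0.171, 0.228 and 0.101). Idh1 showed its widest difference in this comparison, from 105, 61.4 and 81.7 CPM to 215, 189 and 221 CPM. Every knockdown library was above every control library, with a log2 change of 1.33 ± 0.185 (edgeR adjusted p = 2.37e-04). Idh2 fell from 178, 222 and 230 CPM to 116, 164 and 102 CPM (−0.72 ± 0.18, edgeR adjusted p = 0.00897), and Mdh2 rose from 578, 604 and 678 CPM to 935, 920 and 800 CPM (0.51 ± 0.124, edgeR adjusted p = 0.00763). Sdha was not called, but was called lower with the block (−0.31, adjusted p = 0.0298), without control replicate 1 (−0.43, adjusted p = 0.0283) and in replicates 2 and 3 alone (−0.38, adjusted p = 0.0352).

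**Figure D3:**
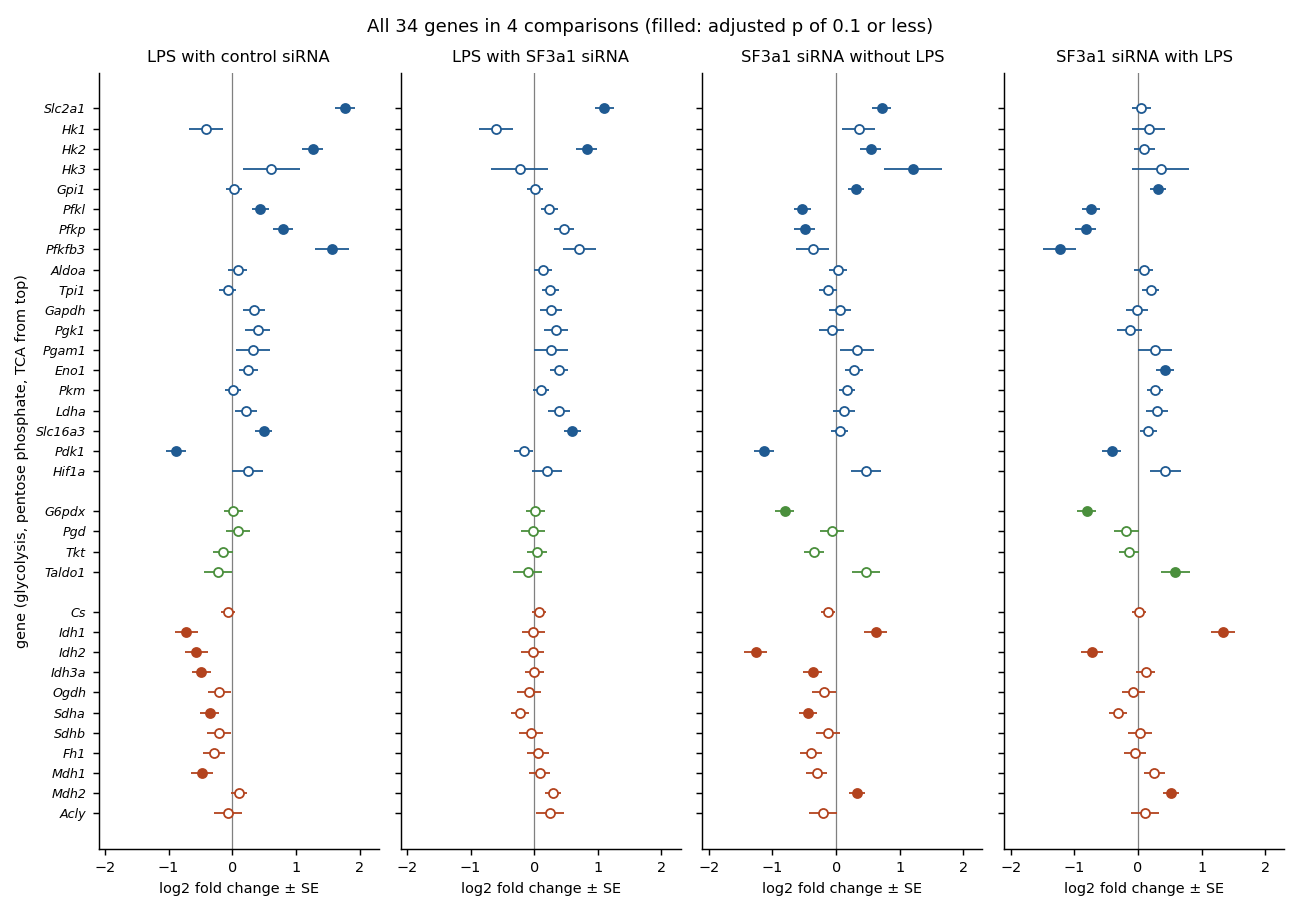
Fitted log2 fold changes of the 34 genes in the 4 comparisons, with standard errors, grouped by pathway (glycolysis, pentose phosphate and TCA from the top), with called genes (edgeR adjusted p at most 0.1) filled. Slc2a1 lies at 1.77 for LPS in control cells and at 0.05 for SF3a1 siRNA with LPS, and Idh1 lies below 0 for LPS in control cells and above 0 for SF3a1 siRNA.

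LPS raised Slc2a1, Hk2 and Slc16a3 in the SF3a1 siRNA cells. Of 19 glycolysis genes 3 rose and 0 fell, against 10.7% of all genes called (6.6% higher and 4.06% lower), and 0 of the 4 pentose phosphate and 0 of the 11 TCA genes were called by edgeR (unadjusted p under 0.05 for 0 and 1 of them) or by DESeq2. Slc2a1 went from 251, 268 and 231 CPM to 488, 612 and 511 CPM (1.10 ± 0.149, edgeR adjusted p = 4.21e-04). Hk2 went from 136, 144 and 153 CPM to 208, 242 and 317 CPM (0.82 ± 0.165, edgeR adjusted p = 0.00778). Slc16a3 went from 293, 307 and 266 CPM to 457, 461 and 396 CPM (0.60 ± 0.135, edgeR adjusted p = 0.0156). The groups stood apart for all 3. Scaling by library totals moved the share of all calls that were higher from 61.9% to 40.1%. Pfkl (0.24, edgeR adjusted p = 0.397), Pfkp (0.47, 0.115), Pfkfb3 (0.70, 0.143) and Gapdh (0.26, 0.485) were higher and Hk1 (−0.60, 0.23) lower in every LPS library without being called, and Pkm overlapped (0.10, 0.783). Idh1 had a log2 change of −0.02 (edgeR adjusted p = 0.985), Pdk1 of −0.16 (0.669), Hk3 of −0.23 (0.886) and Hif1a of 0.20 (0.772), none of them called. The replicate block raised the glycolysis calls from 3 to 8 and those over all genes to 20.8%, with Pfkfb3 (0.70, adjusted p = 0.0816), Pfkp (0.46, adjusted p = 0.0175), Eno1 (0.39, adjusted p = 0.0226) and Ldha (0.38, adjusted p = 0.0336) added as higher and Hk1 (−0.61, adjusted p = 0.0751) as lower. Pfkfb3 was also called without replicate 1 of the LPS-treated knockdown cells (0.89, adjusted p = 0.0723) and with no filter on low counts (0.71, adjusted p = 0.0175). Pfkp was also called by DESeq2 (0.45, adjusted p = 0.0887) and with only the groups compared (0.47, adjusted p = 0.0904). Hk1 was also called with library totals (adjusted p = 0.0904), no filter (0.061) and only the groups compared (0.0393). In replicates 2 and 3 alone Pfkp, Pfkfb3 and Hk1 were called (adjusted p of 0.0233, 0.0111 and 0.0125).

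Whether the effect of the knockdown differed with LPS was tested as an interaction, which called 3.47% of all genes (1.54% higher and 1.94% lower) and 0 of the 34 members by edgeR's quasi-likelihood test. At an unadjusted p under 0.05 there were 3 glycolysis, 0 pentose phosphate and 3 TCA genes, and DESeq2 called 2 glycolysis genes, Slc2a1 (adjusted p = 0.0358) and Pdk1 (0.0683), and no other member. The interaction estimates were −0.67 ± 0.209 for Slc2a1 (edgeR adjusted p = 0.143), 0.72 ± 0.213 for Pdk1 (0.121) and 0.71 ± 0.258 for Idh1 (0.223). With the replicate block, which called 11.7% of all genes, each of these was called (adjusted p of 0.0489, 0.0198 and 0.0345), Slc2a1 also without replicate 2 of the LPS-treated knockdown cells (−0.77, adjusted p = 0.0996) and Idh1 without replicate 1 of the LPS-treated control cells (0.91, adjusted p = 0.0575). Replicates 2 and 3 alone called Pdk1 (0.73, adjusted p = 0.0798) and Idh1 (0.78, adjusted p = 0.1). With the block Hk3 (−0.75, adjusted p = 0.0771) and Idh3a (0.50, adjusted p = 0.0791) were called too. The estimate was above 0 for 11 of 11 TCA genes, with a median of 0.32 against 0.04 for all genes tested, a description for which no test of the list was made.

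The sums over each pathway show the same levels in another form. The 19 glycolysis genes summed to 12800 ± 475 CPM (SD, n = 3) in control cells, 14400 ± 1280 with LPS, 14000 ± 979 with SF3a1 siRNA and 16400 ± 1360 with both. The 11 TCA genes summed to 3600 ± 49.3, 3090 ± 160, 3220 ± 84.3 and 3410 ± 110 CPM in the same order. The 4 pentose phosphate genes summed to 2790, 2660, 2590 and 2550 CPM. The most abundant genes set these sums, so the glycolysis sum says little about Slc2a1, Hk2 or the phosphofructokinases.

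The makeup of the families differed between the groups. Of the hexokinase transcripts per kilobase, Hk2 made up 31.7% in control cells and 54.3% with LPS, and 29.5% and 49.5% in the knockdown cells without and with LPS. Hk1 fell from 44.2% to 21.7% of them with LPS in control cells and stood at 36% and 22.5% in the knockdown. Hk3 made up 24% in both control groups and 34.5% and 28% in the knockdown groups. With LPS replicate 1 stood apart for Hk2, at 37.8%, 64.7% and 60.3% in control cells and 37.1%, 55.9% and 55.6% in knockdown cells. Among the phosphofructokinases Pfkl held between 66.2% and 68.3% in every group, whereas Pfkp went from 20.1% to 26.6% with LPS in control cells and the muscle form Pfkm from 13.8% to 5.11%. Without LPS Pfkm was at 18.8% in control replicate 1 and at 10.8% and 11.7% in replicates 2 and 3. Among the glucose transporters Slc2a1 made up 60.7% and 69.1% in control cells and 85.2% and 89.7% in the knockdown, while Slc2a6, a lysosomal transporter, made up 24.9% and 27.9% and then 6.37% and 6.91%. Pdk3 was the leading pyruvate dehydrogenase kinase, between 61.5% and 76.2%, and Pdk1 went from 36.5% in control cells to between 20.5% and 25.8% in the other groups. These shares are means over 3 libraries with no test of their own, and they depend on the length used, here all annotated exons of a gene. With the longest coding transcript instead, Hk1 made up 58.8% and 33.2% and Hk2 22.8% and 45.8% in control cells without and with LPS, Pfkp 32.5% and 40.1%, Pfkm 8.05% and 2.76%, and Slc2a1 51.4% and 61.1%. By that length Pfkl held between 57.1% and 59.4% in every group. In knockdown cells without and with LPS, Hk1 then made up 50% and 34.4%, Hk2 22.2% and 41.1%, and Slc2a1 79.1% and 85.5%.

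**Figure D4:**
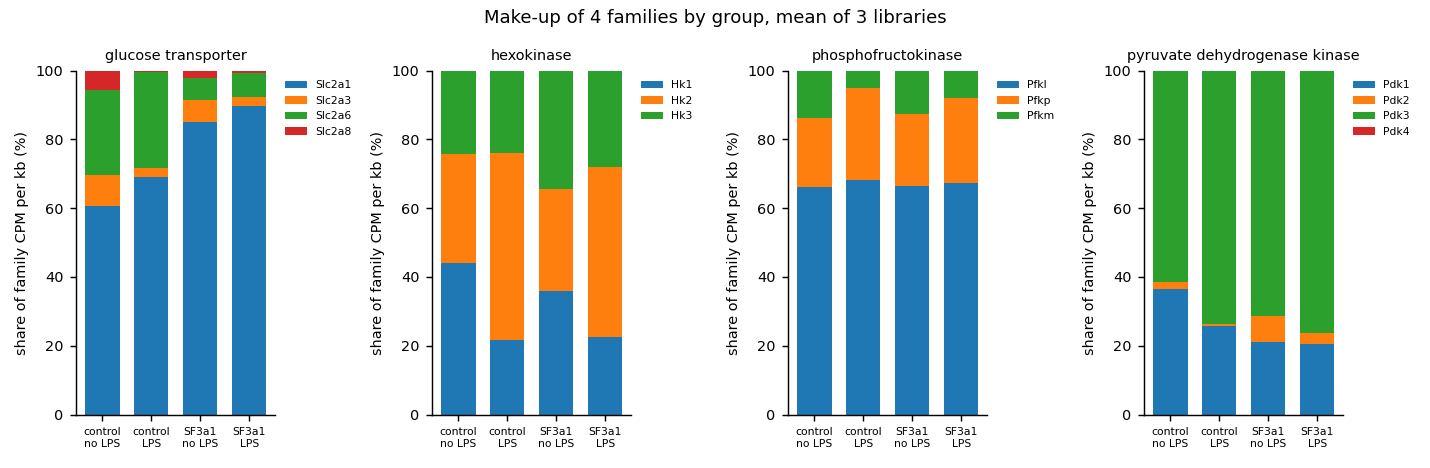
Share of each isozyme in its family, in percent of the family's CPM per kilobase, for hexokinases, phosphofructokinases, glucose transporters and pyruvate dehydrogenase kinases in the 4 groups. Hk2 takes a mean of 54.3% ± 14.4 (SD, n = 3) of hexokinase transcripts in control cells with LPS against 31.7% ± 1.84 without it.

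The rest of each pathway was read from lists of further members. Of 26 tested further glycolysis genes 1 rose and 7 fell with LPS in control cells, near the 32.1% called over all genes. The one that rose was Slc2a6 (1.73, edgeR adjusted p = 1.14e-04), and the largest falls were those of Pdk2 (−2.85, 3.24e-04), another pyruvate dehydrogenase kinase, and of the intracellular transporter gene Slc2a8 (−2.23, 1.04e-04). Pdk2 was scarce, at 1.93, 1.7 and 1.87 CPM without LPS and 0.184, 0.556 and 0.112 CPM with it, and it was higher in every knockdown library without LPS, at 6.31, 4.4 and 5.43 CPM. The knockdown moved 3 of these genes up and 7 down without LPS, and 8 up and 4 down with it, against 33.8% and 38.8% of all genes called. In the latter Slc2a6 fell by 2.35 on the log2 scale and Pdk2 rose by 3.03. Of 8 further pentose phosphate genes 1 rose and 1 fell with LPS in control cells (32.1% of all genes), and with the knockdown 1 rose and 3 fell without LPS (33.8%) and 2 rose and 3 fell with it (38.8%). Pgls, the lactonase that follows G6pdx, fell in both (−0.75 and −0.86), the first of these lost without control replicate 2 or 3 or knockdown replicate 1 (adjusted p of 0.162, 0.156 and 0.106). H6pd, the glucose 6-phosphate dehydrogenase of the endoplasmic reticulum, rose in both (0.82 and 0.72).

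Of 22 further TCA genes 1 rose and 4 fell with LPS in control cells, below the 32.1% called over all genes. The riser was Acod1, whose product makes itaconate from cis-aconitate, at 14.8, 7.55 and 6.86 CPM without LPS and at 4240, 5200 and 5800 CPM with it (9.01, edgeR adjusted p = 1.14e-07). In knockdown cells it was at 38.1, 13.9 and 16.9 CPM and at 1340, 2460 and 2170 CPM, so each LPS-treated knockdown library was below each LPS-treated control library. Its interaction was −2.59 (edgeR adjusted p = 0.0304), and its log2 change with the knockdown under LPS was −1.35. Without LPS the knockdown raised Acod1 (1.23, edgeR adjusted p = 0.0336). That call was lost without control replicate 2 or 3 or knockdown replicate 1 (adjusted p of 0.101, 0.102 and 0.203), with 0.65 without the last. Pck2, the mitochondrial phosphoenolpyruvate carboxykinase, fell with the knockdown by 2.51 without LPS and by 2.50 with LPS on the log2 scale, and the malic enzyme gene Me2 by 1.46 and 1.02. In this list 2 genes rose and 6 fell with the knockdown, without LPS as with it, against 33.8% and 38.8% of all genes. The genes behind these equal counts differed, since Acod1 rose without LPS and fell with it.

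Of 15 tested genes of the HIF and Myc axis 4 rose and 3 fell with LPS in control cells (32.1% of all genes called), 4 rose and 4 fell with the knockdown without LPS (33.8%), and 6 rose and 3 fell with the knockdown under LPS (38.8%). Myc, a transcription factor that also drives glycolytic genes, rose by 3.97 with LPS in control cells, by 2.71 with the knockdown alone and by 1.67 with LPS in knockdown cells, all log2 values, with an interaction of −2.30 (edgeR adjusted p = 0.00853). Vegfa, a HIF target, rose with the knockdown under LPS (2.04) and with LPS in knockdown cells (2.47). It also rose with LPS in control cells (1.23, edgeR adjusted p = 0.0866), a call lost with library totals (adjusted p = 0.145) and without control replicate 1 or 2 or LPS replicate 2 or 3 (adjusted p of 0.234, 0.162, 0.214 and 0.145). Other HIF targets moved in either direction with the knockdown. Bnip3, a receptor for the removal of mitochondria, fell without LPS (−1.77, edgeR adjusted p = 0.00483) and with it (−1.46, 0.0118). Without LPS its control libraries were uneven, at 18.7, 27.1 and 59.1 CPM. The change ranged there from −1.98 to −1.07 over the alternatives, and the call was kept. Ankrd37 fell without LPS (−1.82, 0.0184), a call lost without control replicate 3 (0.139), and was not called with it (−0.071, 0.935). The histone demethylase gene Kdm3a rose without LPS (0.83, 0.00576) and with it (0.79, 0.00718), and Ndrg1 rose with LPS (1.45, 0.00757). P4ha1 was called higher without LPS (0.40, 0.0426) and lower with it (−0.36, 0.0539), each call being lost under several alternatives. Of 7 commonly used reference genes 2 rose with LPS in control cells and 1 fell with the knockdown under LPS.

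At the level of exon bins, counted in 11 libraries because replicate 3 of the control siRNA with LPS group was not analysed here, at most 3 members had a called bin in a comparison. A bin is a stretch of exon delimited by the ends of annotated exons, and its use was tested against the rest of its gene with edgeR's diffSpliceDGE and Benjamini-Hochberg adjustment over 153624 bins. All 34 members were tested, with 702 bins. For Tkt the bins are joined with those of 1 other gene, so its bins were tested against the joined unit. A called bin was found in 2 members with LPS in control cells (0.462% of all genes tested), in 3 with SF3a1 siRNA alone (6.16%), in 2 with SF3a1 siRNA under LPS (5.03%), and in 0 with LPS in knockdown cells (0.104%) and in the interaction (0%). With the replicate block the first 3 of these counts became 4, 9 and 8 members, against 1.22%, 11.5% and 10.4% of all genes. The member bins with an unadjusted p under 0.05 numbered 9, 20, 21, 4 and 5 of 702 in that order. In simulated data with a spread that varied between the bins of a gene this test made more false calls than its nominal rate, so single bins should be read with that in mind.

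The most reliable of these was bin 9 of Ldha. It took 0.00759%, 0.012% and 0.00317% of the gene's bin counts in control cells and 0.102%, 0.0815% and 0.045% in knockdown cells, a difference of 3.37 on the log2 scale (diffSpliceDGE adjusted p = 3.49e-04). With LPS it took 0.0101% and 0.00587% in 2 control libraries and 0.0937%, 0.0989% and 0.0712% in knockdown cells (3.23, adjusted p = 0.01). All knockdown libraries were above all control libraries, yet the bin remained a minute part of Ldha, with 157 counts in the 3 knockdown libraries without LPS, and the call with LPS was lost without control replicate 1 (adjusted p = 0.344). Bin 10 of Taldo1 went from 0.171%, 0.064% and 0.129% to 0.403%, 0.415% and 0.497% with the knockdown (1.68, adjusted p = 0.0732), a call lost without control replicate 2 or 3 or any knockdown library (adjusted p of 0.539, 0.394, 0.119, 0.224 and 0.281). Bin 22 of Pfkfb3 went from 15.7%, 2.84% and 4.12% to 2.46%, 1.4% and 1.78% (−2.07, adjusted p = 0.0172). It rested on control replicate 1, without which the change was −0.93 (adjusted p = 1), and was also lost without knockdown replicate 2 or 3 (adjusted p of 0.349 and 0.133).

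Bin 11 of Ogdh (chromosome 11, 6297200 to 6297677, plus strand, mm10) is exonic in 1 annotated transcript, Ogdh-205, and spanned by 6 others. It held 35 counts in the 3 control libraries, 0 in the 2 LPS-treated control libraries, 28 in the knockdown libraries without LPS and 19 in those with LPS. It was called less used with LPS (adjusted p = 0.0808) and more used with the knockdown under LPS (adjusted p = 0.0572), and both calls were lost without either of the 2 LPS-treated control libraries (adjusted p of 1 and 0.449, and of 1 and 0.277). They were also lost without control replicate 2 (adjusted p = 0.16) in the first and knockdown replicate 2 (adjusted p = 0.176) in the second. Bin 5 of Ldha was called more used with LPS (2.93, adjusted p = 0.0825) on the strength of 1 library, with 0.0849% in LPS replicate 1 and 0.0088% in replicate 2, and without the former its change was 0.25. This call was also lost without any 1 of the 3 control libraries (adjusted p of 0.215, 0.323 and 0.884).

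Pkm is known for a pair of mutually exclusive exons that give the PKM1 and PKM2 isoforms, with PKM2 the main form in macrophages. The gene has 12 bins in the exon counts and 12 distinct exons in its PKM1 and PKM2 transcripts, and the bins were assigned to exons by that order, since the files give no coordinates. The exons are shown because the comparison turns on them. Each is 167 bases long, they are identical at 103 positions (61.7%), and the capitals mark the bases at which they differ (mm10, GENCODE vM21 transcripts).
PKM1 exon, bin 9 (chr9:59675029-59675195, plus strand): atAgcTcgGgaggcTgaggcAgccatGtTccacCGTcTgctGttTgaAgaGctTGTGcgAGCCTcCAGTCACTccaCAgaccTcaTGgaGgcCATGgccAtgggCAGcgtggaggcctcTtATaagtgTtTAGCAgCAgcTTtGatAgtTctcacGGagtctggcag
PKM2 exon, bin 10 (chr9:59675568-59675734, plus strand): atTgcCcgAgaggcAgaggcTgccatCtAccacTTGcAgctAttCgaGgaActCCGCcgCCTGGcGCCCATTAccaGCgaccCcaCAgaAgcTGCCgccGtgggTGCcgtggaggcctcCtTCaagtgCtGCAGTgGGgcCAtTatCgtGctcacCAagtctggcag

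Of the counts on these exons, the PKM1 exon took 7.02%, 8.69% and 9.2% in control cells, a mean of 8.3% ± 1.14 (SD, n = 3), and 5.8% and 7.7% with LPS. In knockdown cells it took 14.6%, 13.1% and 14.6% without LPS (14.1% ± 0.848) and 14.8%, 12.1% and 14.3% with LPS (13.7% ± 1.43). All 6 knockdown libraries were above all 5 control libraries, and the PKM2 exon remained the main one in each. Exact 95% binomial intervals, which cover counting error only, ran from 6.76% to 7.29% in the deepest control library and from 13.7% to 15.5% in the shallowest knockdown library. The difference was 5.81 percentage points without LPS, with a two-sided exact permutation p of 0.1, the smallest that 3 against 3 libraries allow. With LPS it was 6.98 points, with an exact p of 0.2, likewise the smallest that 3 against 2 libraries allow. The LPS effect was −1.55 points in control cells (exact p = 0.4) and −0.38 points in knockdown cells (exact p = 0.7). Against the whole gene the use of the PKM1 exon changed by 0.72 and 0.94 on the log2 scale with the knockdown, not called in diffSpliceDGE (adjusted p of 0.836 and 0.48) and called with the replicate block (adjusted p of 0.00554 and 7.12e-04).

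**Figure D5:**
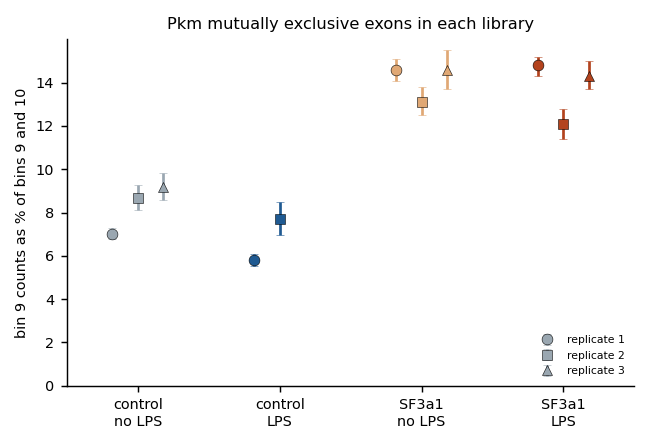
Share of counts on the PKM1 exon among the counts on both exclusive Pkm exons, in percent, for each of 11 libraries, with exact 95% binomial intervals as bars. The knockdown libraries lie between 12.1% and 14.8% and the control libraries between 5.8% and 9.2%.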

How the data were processed

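Per the labels and the study's methods, polyA RNA was sequenced single-end on an Ion Proton, and the authors aligned reads of at least 30 nt to mm10 with GSNAP, kept unique placements, and counted them on genes with HTSeq (version 0.5.4p in the submitters' processing notes) and on exon bins with the DEXSeq script. The deposited values are raw counts, and strand use in counting is not given in the sources used here, so antisense overlaps cannot be separated. Rows of reads not assigned to a gene were left out of library sizes (17.75% to 27.2% of reads without a feature, 0.4312% to 0.5301% ambiguous).

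Counts were fitted in edgeR 4.0.16 (glmQLFit, glmQLFTest, TMM, filterByExpr, 12 libraries) and exon bins with diffSpliceDGE on 11 libraries, in R 4.3.3, with limma 3.58.1 installed beneath it. The rate of 0.1 follows the study. DESeq2 1.42.0, other scalings, no filter, fewer libraries and a replicate block were alternatives, and replicates 2 and 3 alone and shares by transcript length were added after seeing the data. Scripts were tested on simulated data. Per-kilobase levels used exon lengths of GENCODE vM21. Members and lists were chosen with earlier results of these data known. All members were accounted for, with full statistics for called members. Estimates of Hif1a, Gapdh, Pkm, Hk1, Hk2, Hk3, Pfkl and Pfkp were to be given whatever the test gave. Of other lists at most 3 called genes were to be named per comparison. Pfkm in any comparison, Kdm3a, P4ha1 and Ndrg1 with SF3a1 siRNA, and Vegfa with LPS in control cells were added after their values were seen. So were Bnip3 and Ankrd37 with SF3a1 siRNA under LPS and Egln1 in the interaction. Idh3b and Idh3g with LPS in control cells also stand outside that rule.

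Replicate numbers come from the sample titles. Same-numbered samples deviated together from their group means (18 correlations, 0.143 to 0.6, median 0.357). For 36 pairs of different numbers the median was −0.308 and the range −0.523 to 0.345. Deviations within a group cancel out, so these medians are not independent of each other. Pairs of replicate 1 ran from 0.408 to 0.6. Replicate 3 of the control cells without LPS correlated at 0.345 with replicate 2 of the LPS-treated knockdown cells and at 0.143 with replicate 3. The pairing is therefore clearest for replicate 1 and less sure for replicates 2 and 3. Blocked values stand beside results whose call they change.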

Additional observations from a re-analysis of the deposited data

Results flagged for a closer look

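The test of whether the knockdown acted differently with LPS than without it picked out 7 genes of the wider lists. Over all genes tested it called 3.47%, 1.54% higher and 1.94% lower. The interaction was −2.59 (log2) for Acod1, −2.30 for Myc and −0.76 for the collagen hydroxylase gene P4ha1. It was 1.95 for Tfeb, 1.44 for Slc2a8, 0.96 for the ribose phosphate kinase gene Prps2 and 0.72 for the HIF prolyl hydroxylase gene Egln1. The edgeR adjusted p was 0.0304, 0.00853, 0.0588, 0.00521, 0.1, 0.0934 and 0.096 in that order, with 3 libraries a group. The Slc2a8, Prps2 and Egln1 calls were each lost without most single libraries, with adjusted p up to 0.245 (without replicate 1 of control siRNA without LPS), 0.239 and 0.303 (both without replicate 3 of that group), and with DESeq2's size factors in edgeR (adjusted p of 0.127, 0.109 and 0.127). The P4ha1 call was lost without replicate 3 of the LPS-treated control cells, replicate 2 or 3 of the knockdown cells without LPS or replicate 3 of those with LPS (adjusted p of 0.129, 0.134, 0.167 and 0.122). With no filter on low counts the P4ha1 and Egln1 calls were lost (0.173 and 0.247).

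In 3 members every replicate moved one way with LPS under control siRNA and the other way under SF3a1 siRNA. The log2 changes were 0.62 and −0.23 for Hk3, −0.15 and 0.05 for Tkt, and −0.072 and 0.070 for Cs. The pattern of replicates is no test of the difference, and its share over all genes tested was not counted. The interaction test called none of these without the replicate block (edgeR adjusted p of 0.694, 0.843 and 0.848). With the block it called Hk3 (−0.75, adjusted p = 0.0771).

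Reads that the counting placed on no annotated feature made up 27.2%, 21.56% and 20.83% in the SF3a1 siRNA libraries without LPS. The highest control library without LPS had 19.63%. Such reads can lie in introns as well as between genes, which these counts do not separate. With LPS the groups overlapped, at 19.91%, 18.2% and 21.37% in the knockdown and 19.83%, 19.3% and 17.75% in control cells.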

How the results depend on the processing

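Of 39 member calls 23 held under every alternative and 16 were lost under at least 1, and none changed direction. The block on the replicate number ended 0 member calls, added 25 and changed no other. Under it the calls became 3 pentose phosphate genes for SF3a1 siRNA without LPS, 10 glycolysis genes with LPS, 8 glycolysis and 3115 genes in all for LPS in knockdown cells, and 3 glycolysis, 2 TCA and 1756 genes in all in the interaction. Genes with a called exon bin became 129, 1217, 1102, 35 and 1 in the order LPS in control cells, SF3a1 siRNA without and with LPS, LPS in knockdown cells and interaction, and members 4, 9 and 8 in the first 3. Without the filter TCA calls were 2 for SF3a1 siRNA without LPS, and glycolysis calls 3 with LPS and 5 for LPS in knockdown cells, with 930 interaction genes. Library totals gave 2 pentose phosphate calls for SF3a1 siRNA without LPS. DESeq2 gave 921 interaction genes, 2 of them glycolytic. With only the groups compared, TCA calls with LPS in control cells were 2 and glycolysis calls for LPS in knockdown cells 5. Replicates 2 and 3 alone gave 3 TCA calls with LPS in control cells, 2 pentose phosphate calls for SF3a1 siRNA without LPS, 10 glycolysis calls with LPS, 6 for LPS in knockdown cells, and 1 glycolysis, 1 TCA and 1012 genes in the interaction. With a minimum of 10 counts 1 member had a called bin with LPS in control cells. The cause of these shifts was not tested.

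Leaving out 1 library at a time gave 2 to 5 TCA calls with LPS in control cells. For SF3a1 siRNA without LPS it gave 3 to 9 glycolysis, 1 to 2 pentose phosphate and 2 to 4 TCA calls, and with LPS 3 to 10 glycolysis and 1 to 2 pentose phosphate calls. It gave 1050 to 1509 genes for LPS in knockdown cells and 273 to 711 for the interaction, with 0 to 1 glycolysis and 0 to 1 TCA calls. Genes with a called bin ranged from 23 to 60, 382 to 517, 83 to 603, 7 to 11 and 0 to 3 in the order above, and members from 0 to 2, 1 to 3 and 0 to 2 in the first 3. Uncalled estimates that turned ranged, for Hk3, from −0.060 to 0.893 with LPS in control cells, from −0.656 to 0.134 (0.056 without knockdown replicate 2 with LPS) with LPS in knockdown cells and from −0.066 to 1.034 with SF3a1 siRNA under LPS. Hk1 ranged there from −0.082 to 0.679, and with LPS in knockdown cells Sf3a1 ranged from −0.019 to 0.380 and Hif1a from −0.005 to 0.408. With SF3a1 siRNA under LPS Gapdh ranged from −0.135 to 0.224, and was 0.012 and 0.059 without knockdown replicates 1 and 3, 0.044 with only the groups compared and 0.248 in replicates 2 and 3 alone, and Hk2 ranged there from −0.081 to 0.236. With LPS in control cells Pkm ranged from −0.032 to 0.059, and was −0.181 with library totals, −0.016 with no filter and −0.023 in replicates 2 and 3 alone. Library totals gave −0.020 for Gapdh with SF3a1 siRNA without LPS and −0.028 for Pkm with LPS in knockdown cells.

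Scaling by totals shifted the median of all genes to −0.20 with LPS in control cells and to −0.12 in knockdown cells. In the interaction the block took the share of calls that were higher from 44.2% to 55.8%. Library totals took this share to 54.1%, and DESeq2's size factors in edgeR took it to 36%. Levels of Gapdh, Eno1, Pgk1 and Pgam1 are uncertain, because only uniquely placed reads were kept and any loss of reads was not measured. Exon bins under LPS are limited by having 2 control libraries.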
